A study of Mus musculus with 15 samples.

Results

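Mouse embryonic stem cells (ESC) that carry 2 X chromosomes were compared with XY ESC across the whole transcriptome, with most weight on genes outside the X chromosome. Genes were taken by level alone: those with at least 1 TPM (transcripts scaled to a common total, a share of all transcripts) in at least 2 of the 6 ESC libraries. This kept 13385 of the 34372 genes in the deposited table, of which 12529 were autosomal, 572 were X-linked and 265 had no position. The groups were 3 XX ESC and 3 XY ESC libraries, and beside them 2 E11.5 XX and 3 E11.5 XY libraries of embryonic germ cells (EGC), which are pluripotent lines grown from primordial germ cells. The series of 15 libraries, titled for DUSP9 and female DNA hypomethylation, compared genetically matched ESC and EGC. The labels give no allele, transgene or drug, and the table header names the groups by karyotype and, for EGC, by embryonic day. All lines were derived in 2i-LIF medium, then kept on embryonic fibroblast feeders in serum with LIF, sorted for SSEA1 and taken at passage 6. Neither strain nor animals are given, and libraries of 1 group may be separate lines or clones of 1 line. The p-values therefore measure only the spread between libraries, which may be technical.

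Female mouse ESC keep both X chromosomes active until they differentiate, so X-linked genes are read from a pair of copies. They are known for lower DNA methylation than male ESC, in particular when grown in serum. Promoter methylation normally keeps many germline genes silent outside the germ line, and it also marks 1 parental copy of imprinted genes. DUSP9, encoded on the X chromosome, removes phosphates from ERK kinases, which carry the signal of FGF and other growth factors to the nucleus. Lower ERK signalling holds ESC in the naive state, in which NANOG, TBX3, PRDM14 and KLF4 are abundant.

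Promoter sequences are shown for the germline gene Asz1, the meiotic gene Sycp1, the enzyme gene Ube2l6 and the imprinted gene Phlda2, because these genes are among those described below and CpG pairs are the target of DNA methylation. Each window runs from 250 bases before to 50 bases after the RefSeq start on GRCm38.p6, 5′ to 3′ on the gene's strand, with CpG pairs in capitals.
Asz1: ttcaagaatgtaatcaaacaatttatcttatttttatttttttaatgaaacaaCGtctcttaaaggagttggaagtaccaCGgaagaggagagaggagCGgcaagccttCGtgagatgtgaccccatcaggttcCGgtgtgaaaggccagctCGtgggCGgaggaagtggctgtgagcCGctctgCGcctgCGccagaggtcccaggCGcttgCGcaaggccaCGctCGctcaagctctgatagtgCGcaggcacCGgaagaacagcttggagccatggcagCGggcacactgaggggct
Sycp1: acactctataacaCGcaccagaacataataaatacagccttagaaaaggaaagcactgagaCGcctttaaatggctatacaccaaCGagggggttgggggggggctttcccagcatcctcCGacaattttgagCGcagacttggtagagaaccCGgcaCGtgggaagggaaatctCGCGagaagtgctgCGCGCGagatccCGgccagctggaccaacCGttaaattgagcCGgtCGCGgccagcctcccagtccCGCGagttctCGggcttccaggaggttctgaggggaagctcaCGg
Ube2l6: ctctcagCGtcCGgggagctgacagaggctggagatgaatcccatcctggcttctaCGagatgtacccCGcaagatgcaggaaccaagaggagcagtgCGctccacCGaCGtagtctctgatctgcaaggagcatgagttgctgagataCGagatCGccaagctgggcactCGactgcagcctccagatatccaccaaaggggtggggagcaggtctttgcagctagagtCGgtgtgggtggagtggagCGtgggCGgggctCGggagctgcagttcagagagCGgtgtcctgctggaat
Phlda2: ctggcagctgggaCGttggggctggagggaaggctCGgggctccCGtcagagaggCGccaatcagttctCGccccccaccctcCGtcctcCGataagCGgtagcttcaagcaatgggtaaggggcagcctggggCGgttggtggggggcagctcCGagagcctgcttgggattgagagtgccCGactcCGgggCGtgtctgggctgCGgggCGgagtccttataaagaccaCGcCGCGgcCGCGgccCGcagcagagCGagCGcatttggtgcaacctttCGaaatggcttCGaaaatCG
The windows lie at chr6:18109012-18109311, minus strand (Asz1), chr3:102936051-102936350, minus strand (Sycp1), chr2:84798578-84798877, plus strand (Ube2l6) and chr7:143502475-143502774, minus strand (Phlda2). They hold 17 CpG pairs at Asz1, 21 at Sycp1, 15 at Ube2l6 and 26 at Phlda2, against a median of 21 over the 8716 tested autosomal genes that have a window. These CpG counts therefore span the middle of the autosomal range, where the quartiles are 14 and 29. No methylation values were used here.

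The libraries went with their labels. The chromosome score of a library is the median deviation of its genes from the mean of the 6 libraries on the log2(TPM + 1) scale, less that of autosomal genes. For the X chromosome it was 0.503, 0.493 and 0.457 in XX ESC, against -0.490, -0.434 and -0.554 in XY ESC. The difference of 0.977 is 1.97-fold, with an exact permutation p = 0.1, the smallest that 3 against 3 libraries allow (20 arrangements, two-sided). Dusp9 itself (chromosome X, 73639419 to 73643514) had 164, 159 and 167 TPM in XX ESC, against 71.8, 66.96 and 76.3 TPM in XY ESC (exact permutation p = 0.1, two-sided, again the smallest possible). Of the X-linked genes 503 (87.9%) were higher in XX ESC and 10 (1.75%) lower, and 283 (49.5%) were higher at least 2-fold. Y-linked transcripts took 0.0145% to 0.0189% of the TPM in XY ESC and nearly none in XX ESC. ESC identity genes summed to 2953 to 3336 TPM in XX ESC and 2279 to 2442 TPM in XY ESC. Of the 6 genes of that list, the fucosyltransferase gene Fut4, which makes the sorted SSEA1 antigen in several tissues, stayed below 1 TPM in every library. A short list of 8 feeder fibroblast markers summed to 7.97 to 8.94 TPM in XX ESC and 8.52 to 11.8 TPM in XY ESC, and the longer list of 22, which holds Tagln and Acta2, to 47.2 to 70.1 TPM in XX ESC and 135.8 to 155.6 TPM in XY ESC. Each of the 6 libraries had 12597 to 13041 genes at 1 TPM or more, and the table holds no read counts, so depth is unknown.

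**Figure D1:**
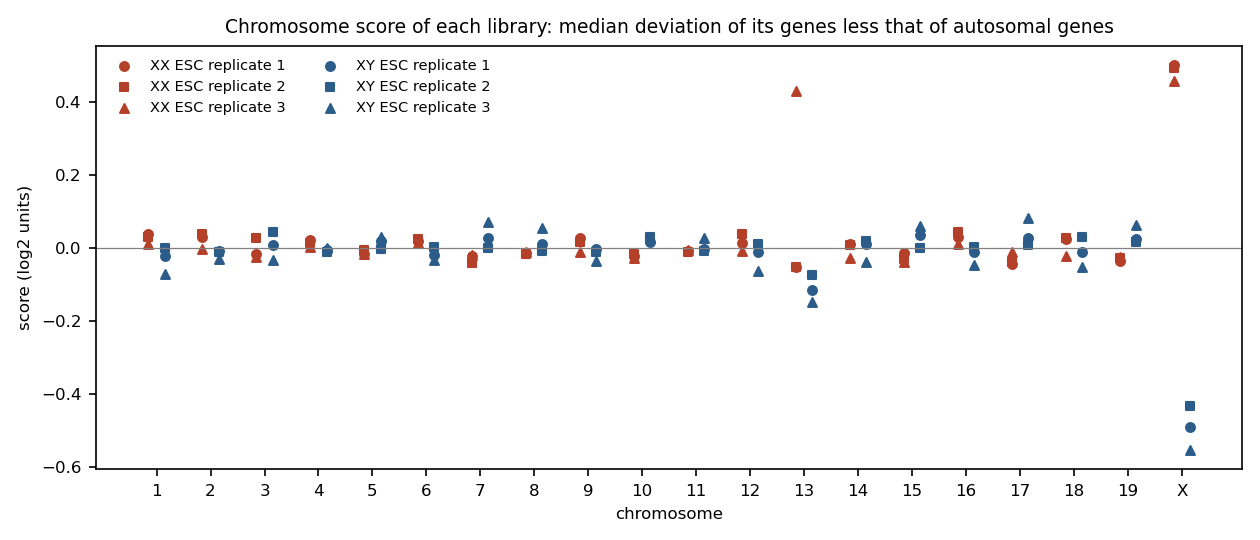
Chromosome scores (y axis, log2 units) of the 3 XX ESC (red) and 3 XY ESC (blue) libraries for each chromosome (x axis), 1 symbol per library. X scores split the groups, with XX ESC at 0.457 or more and XY ESC at -0.434 or less, and XX ESC replicate 3 stands at 0.432 on chromosome 13.

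XX ESC replicate 3 stood apart on chromosome 13. Its score there was 0.432, against -0.0508 and -0.0515 in XX ESC replicates 1 and 2 and -0.115, -0.0742 and -0.148 in XY ESC. Over 342 chromosome 13 genes with at least 5 TPM on average, its median excess over XX ESC replicates 1 and 2 was 0.47 on the log2 scale, or 1.38-fold, and 80.4% of these genes exceeded 0.3. Over 9035 genes of the other autosomes the median was -0.07, and 3.38% exceeded 0.3. The excess ran along the whole chromosome, with medians of 0.48, 0.47, 0.44 and 0.47 in 4 equal runs of genes from first to last. Among single genes it reached 1.12 for the histone gene Hist1h2aj, 1.06 for the histone gene Hist1h2bc, 1.00 for the respiratory chain gene Cox7c and 0.93 for the clathrin light chain gene Cltb. Cox7c had 449.6, 465 and 914 TPM in XX ESC, against 434, 509 and 596 TPM in XY ESC, so the third XX library held the highest level of all 6. Hist1h2bc, Cox7c and Cltb were not called between the groups (adjusted p = 0.916, 0.591 and 0.752), and without XX ESC replicate 3 their log2 fold changes reversed to -0.31, -0.15 and -0.20. Hist1h2bc was called lower there (adjusted p = 0.0464). Hist1h2aj had 4.55, 12.6 and 17.9 TPM in XX ESC, against 9.15, 11.6 and 13.7 TPM in XY ESC, and it was not called either (adjusted p = 0.804), with a log2 fold change of -0.13 that reversed to 0.38 without XX ESC replicate 1. Over all 482 tested chromosome 13 genes, 150 were called higher (31.1%) and 14 lower (2.9%). Without XX ESC replicate 3 the counts were 131 and 47. The cause of the excess was not tested. Among genes named below as higher, Il6st, Id4, Dsp, Tfap2a, Klf6, Sycp2l and Tubb2a lie on chromosome 13.

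Outside the X chromosome the differences were many and mostly small. Of 12529 autosomal genes, 2813 were higher in XX ESC (22.5%) and 2259 lower (18%) at an adjusted p under 0.05 by limma. With X-linked and unplaced genes the shares were 25.3% and 17.2%. At least 2-fold were 448 (3.58%) and 252 (2.01%) of them. The median log2 fold change of autosomal genes was 0.03, and 78.1% lay within 0.5 of zero. A call alone is thus common here, and each gene group is read against these shares. The gene lists were chosen with earlier results of these data known, so their counts beside these shares are descriptions, not tests. Sizes of rises and falls below are log2 fold changes of XX ESC over XY ESC unless TPM is named. XX values all exceeded XY values in 28.7% of autosomal genes and all fell below them in 24.5%. Calls near the detection floor need care: 393 of those called higher passed the 1 TPM filter only through XX ESC, and 213 of those called lower only through XY ESC. The share of autosomal calls that were higher was 55.5%, against 47.2% with median-ratio scaling, 40.6% with quantile normalization and 63.4% with scaling to the autosomal sum.

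The largest autosomal rises belonged to genes of varied function. Ube2l6, which encodes an enzyme that passes ISG15 to target proteins (chromosome 2, 84798828 to 84810335), had 33.1, 23.8 and 34.2 TPM in XX ESC, against 0.827, 0.973 and 0.481 TPM in XY ESC. Every XX library was more than 20 TPM above every XY library (log2 fold change 4.15 ± 0.17 (SE), limma adjusted p = 1.01e-06). Pramel7 and Pramel6, leucine-rich repeat genes of the early embryo that lie together on chromosome 2, had 15.4, 12.2 and 13.5 TPM in XX ESC, against 0, 0.0739 and 0.0245 TPM in XY ESC (Pramel7) and 9.66, 7.82 and 9.34 TPM in XX ESC, against 0.107, 0.02298 and 0.0953 TPM in XY ESC (Pramel6). Both were thus close to silent in XY ESC, with log2 fold changes of 3.83 ± 0.12, adjusted p = 2.24e-07 for Pramel7 and 3.21 ± 0.12, adjusted p = 7.33e-07 for Pramel6. These neighbours are similar in sequence, and the counting could have shared reads between them. Kiss1, which encodes the reproductive peptide kisspeptin, had 21.1, 19.5 and 19.03 TPM in XX ESC, against 1.15, 0.221 and 1.17 TPM in XY ESC (log2 fold change 3.54 ± 0.21 (SE), limma adjusted p = 6.24e-06). The citrate carrier gene Slc13a5 and the glutamate carrier gene Slc1a1 rose by 2.89 and 2.81, and the homeodomain gene Hopx and the testis respiratory gene Cox7b2 by 2.75 and 2.87 (adjusted p at most 5.41e-06). The pseudogene Dynlt1-ps1 had 22.6, 1.47 and 26.7 TPM in XX ESC and was listed at 0 in all XY ESC, so XX ESC replicate 2 fell far below the other XX libraries.

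**Figure D2:**
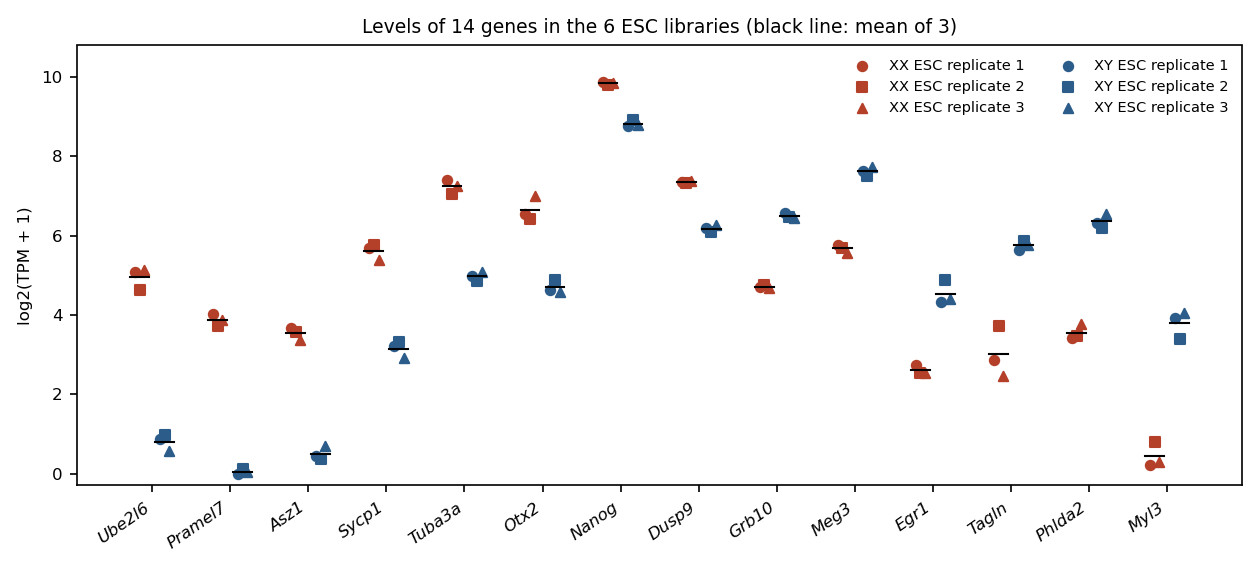
Levels on the log2(TPM + 1) scale (y axis) of 14 genes (x axis) in the 3 XX ESC (red, left of each pair) and 3 XY ESC (blue, right) libraries, with black lines for group means. For each gene shown the groups do not overlap, from Ube2l6 with 23.8 TPM or more in XX ESC to Myl3 with 0.741 TPM or less.

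On the 3 lists of germline genes below, genes rose more often than they fell. On a further list, of 15 primordial germ cell identity genes, 4 rose and 5 fell (median -0.15). Of these 5, 1 passed the filter only through XY ESC. That list shares Dazl with the list that follows. Of 17 autosomal genes on a list of other germline genes, 13 rose and 2 fell (median log2 fold change 1.02), against 22.5% and 18% of all autosomal genes. The list is named for methylated promoters, but promoter methylation was not measured here. Of these 13 risers, 4 passed the filter only in XX ESC. The list also holds the general DNA repair gene Brca1, which is not a germline gene and was not called. Rpl10l, a testis copy of a ribosomal protein gene, had 54.4, 58.5 and 71.6 TPM in XX ESC, against 16, 17.4 and 16.4 TPM in XY ESC. Dazl, an RNA-binding protein required in germ cells, had 93.9, 84.3 and 70.3 TPM in XX ESC, against 27.8, 24.4 and 20.2 TPM in XY ESC. Both groups were well apart for both genes (log2 fold change 1.82 ± 0.11 (SE), limma adjusted p = 5.84e-06, for Rpl10l and 1.74 ± 0.14, adjusted p = 2.78e-05 for Dazl). Ddx25, a testis RNA helicase gene, fell by 1.03 (adjusted p = 0.000195), and the meiotic histone reader gene Zcwpw1 fell by 0.76 (adjusted p = 0.00153).

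Of 18 genes of the piRNA pathway and its Tudor domain proteins, which silence transposons in germ cells, 10 rose and 4 fell (median 0.40), of which 2 risers passed the filter only through XX ESC and 3 fallers only through XY ESC. Asz1, a mitochondrial scaffold of this pathway (chromosome 6, 18050964 to 18109061), had 11.8, 10.9 and 9.38 TPM in XX ESC, against 0.3602, 0.3001 and 0.611 TPM in XY ESC. It stayed below 1 TPM in each XY library and above 9 TPM in each XX library (log2 fold change 3.04 ± 0.13 (SE), limma adjusted p = 1.49e-06). Gtsf1, a zinc finger partner of PIWI proteins, had 11, 11.05 and 13.9 TPM in XX ESC, against 3.01, 2.17 and 2.11 TPM in XY ESC. Mael, the gene of the maelstrom protein of the same silencing complexes, had 55.1, 63.7 and 61.2 TPM in XX ESC, against 27, 21.1 and 25.4 TPM in XY ESC. Stk31, a Tudor domain kinase gene, rose by 1.15 (adjusted p = 3.88e-05), as did Gtsf1 by 1.92 and Mael by 1.26, with no overlap between the groups. The PIWI gene Piwil4 and the Tudor gene Tdrd5 went the other way, by -0.74 and -0.96 (adjusted p = 0.00229 and 0.000227), and both reached 1 TPM only in XY ESC. Ddx4, the vasa helicase that marks germ cells, had 27.2, 29.6 and 42.05 TPM in XX ESC, against 49.6, 44.5 and 36.7 TPM in XY ESC, with overlapping groups (log2 fold change -0.41 ± 0.17 (SE), limma adjusted p = 0.076). Ddx4 lies on chromosome 13, and it was called lower without XX ESC replicate 3 (log2 fold change -0.59, adjusted p = 0.00683) and with all 15 libraries in the fit (adjusted p = 0.0472).

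Meiotic genes moved both ways. Of 19 autosomal members 9 rose and 4 fell (median 0.37). Sycp1, the transverse filament of the synaptonemal complex (chromosome 3, 102818499 to 102936100), had 50.3, 53.1 and 41.05 TPM in XX ESC, against 8.31, 8.99 and 6.59 TPM in XY ESC, and its lowest XX value was more than 4 times its highest XY value. It rose by 2.46 (SE 0.13, adjusted p = 4.15e-06). The central element gene Syce1 rose by 1.38 and Sycp2l by 1.49, while Syce3, which encodes another central element protein, fell by 0.84 and the meiotic cohesin gene Rec8 by 0.44 (adjusted p at most 0.0072). Sycp3, the lateral element gene, had 63.7, 85.4 and 75.5 TPM in XX ESC, against 115, 126 and 81.8 TPM in XY ESC, so XX ESC replicate 2 exceeded XY ESC replicate 3. Its fall of 0.50 (adjusted p = 0.034) was not called without XX ESC replicate 1 (adjusted p = 0.12), XX ESC replicate 3 (0.0583), XY ESC replicate 1 (0.103) or XY ESC replicate 2 (0.112). The number of members called lower was 2 with scaling to the autosomal sum or with no filter on low values or with no trend or without XX ESC replicate 1 or 3 or XY ESC replicate 1 or 2. Sycp2l lies on chromosome 13 and kept its call without XX ESC replicate 3.

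The promoter letters of the 3 germline lists were counted beside these values. Of their 54 tested autosomal genes, Brca1 included, 50 have a RefSeq window (92.6%). Of these, 16 (32%) hold the E-box CACGTG, among them Sycp1, Mael, Stk31 and Ddx4. The letters occur in 7.24% of all 27025 windows of this length and in 10.5% of tested autosomal genes. Of the 28 germline genes with a window that rose, 10 hold them, and of the other 22, 6 do. The letters GCGGGA, read on both strands, occur in 46% of the 50 windows, in 37.3% of tested autosomal genes and in 20% of all windows. Neither string is in the printed Asz1 window, and both are in that of Sycp1. The E-box is the palindromic site of factors such as MYC, MAX and MGA, and GCGGGA is the core of an E2F site. These matches describe letters only.

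Among general and naive pluripotency genes rises outnumbered falls, where all autosomal genes had 22.5% higher and 18% lower. Of 19 autosomal members 11 rose and 1 fell (median 0.40), which was Sall4 at -0.36 (adjusted p = 0.0052). The count called lower was 2 without XX ESC replicate 2. Nanog, a homeodomain factor of the naive state (chromosome 6, 122707489 to 122714633), had 943, 899.7 and 929 TPM in XX ESC, against 432, 482 and 445 TPM in XY ESC. Its lowest XX library lay far above its highest XY library (log2 fold change 1.03 ± 0.06 (SE), limma adjusted p = 8.43e-06). Tbx3, a T-box factor that holds back differentiation, had 72.1, 62.1 and 76.2 TPM in XX ESC, against 26.7, 30.5 and 32.1 TPM in XY ESC. Klf4, a Krüppel-like factor downstream of LIF, had 195, 136 and 188 TPM in XX ESC, against 63.8, 74.6 and 79.3 TPM in XY ESC. Both stood apart in every library, by 1.21 and 1.23 (adjusted p = 4.02e-05 and 0.000198). Prdm14, a repressor of the FGF receptors and of de novo methylation, and Tcl1, an AKT cofactor, rose by 0.94 and 1.18. Pou5f1 had 1399.5, 1255 and 1504 TPM in XX ESC, against 1200.2, 1113 and 1304 TPM in XY ESC, with overlapping groups (log2 fold change 0.20 ± 0.09 (SE), limma adjusted p = 0.0941). It was called higher with scaling to the autosomal sum (adjusted p = 0.0398), with quantile normalization (0.036) and without XX ESC replicate 2 (0.0476). Esrrb had 199, 183 and 188 TPM in XX ESC, against 174, 173 and 187 TPM in XY ESC (adjusted p = 0.279).

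Of 12 autosomal Dppa, Pramel, Utf1 and Lin28 genes, early embryo and stem cell genes, 8 rose and 2 fell (median 0.48), and 2 of the risers, Pramel6 and Pramel7, passed the filter only in XX ESC. The count called lower was 4 with quantile normalization. Dppa5a, an RNA-binding protein gene of naive cells, had 11401, 11297 and 10697 TPM in XX ESC, against 6597, 6656 and 6129.8 TPM in XY ESC, which made it one of the most abundant transcripts in both groups. Dppa2, a chromatin factor that protects bivalent promoters, had 115, 104 and 130.4 TPM in XX ESC, against 43.8, 48.8 and 43.6 TPM in XY ESC. Both were above all XY libraries (log2 fold change 0.79 ± 0.07 (SE), limma adjusted p = 4.03e-05, for Dppa5a and 1.34 ± 0.10, adjusted p = 1.78e-05 for Dppa2). Lin28a, which blocks the let-7 microRNAs, fell by 0.92 (adjusted p = 9.77e-05), with 42.4, 38.7 and 38.3 TPM in XX ESC, against 71.2, 85.3 and 72.1 TPM in XY ESC. Utf1, a chromatin factor of undifferentiated cells, fell by 0.54 (adjusted p = 0.00388).

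The formative and primed genes, which mark the step from naive cells towards the epiblast, showed no common direction, with 5 of 16 autosomal members higher and 4 lower (median -0.01). The count called higher was 3 with median-ratio scaling or with quantile normalization or without XX ESC replicate 1 or XY ESC replicate 1. Otx2, a homeodomain factor of the formative epiblast, had 92.8, 85.5 and 127 TPM in XX ESC, against 23.9, 28.3 and 22.97 TPM in XY ESC. Foxd3, a forkhead factor of the same transition, had 15.7, 9.37 and 12.4 TPM in XX ESC, against 2.39, 2.25 and 2.84 TPM in XY ESC. Both were higher in every XX library (log2 fold change 1.96 ± 0.15 (SE), limma adjusted p = 2.19e-05, for Otx2 and 1.92 ± 0.17, adjusted p = 5.09e-05 for Foxd3). The growth factor gene Fgf8 had 0.391, 0.745 and 0.305 TPM in XX ESC, against 2.77, 4.66 and 3.86 TPM in XY ESC. Fgf8 and the WNT receptor gene Fzd7 fell by 1.68 and 1.13 (adjusted p = 0.000146 and 7.83e-05). Of the 4 fallers 1, Fgf8, passed the filter only through XY ESC. Of the 5 risers 1 passed only through XX ESC. Sox4 and Sox11, factors of early neural and mesenchymal cells, fell by 1.03 and 0.84 (adjusted p = 0.000356 and 0.00193). Pax6, an early neural factor, had 1.77, 1.702 and 2.05 TPM in XX ESC, against 5.12, 6.92 and 4.5 TPM in XY ESC. Of 7 autosomal neuroectoderm genes 3 rose and 1, Pax6, fell (lower 2 with quantile normalization or without XX ESC replicate 1 or 3). The sum over the 13 listed genes in the table, X-linked ones included, came to 58.5 to 78.3 TPM in XX ESC, against 44.03 to 47.8 TPM in XY ESC.

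Genes that set or remove DNA methylation moved both ways, with 6 of 20 autosomal members higher and 5 lower (median 0.01). The count called higher was 3 without XX ESC replicate 1 or XY ESC replicate 1. Dnmt3l, the catalytically inactive partner of the de novo methyltransferases, had 386, 305 and 263 TPM in XX ESC, against 164, 138 and 151 TPM in XY ESC. Dnmt3a, a de novo methyltransferase gene, had 17.97, 17.3 and 15.7 TPM in XX ESC, against 28.2, 25.4 and 28.6 TPM in XY ESC. These partners thus moved in opposite directions, by 1.05 and -0.66 (adjusted p = 0.000344 and 0.000541). Uhrf1, which brings the maintenance methyltransferase to replicating DNA, had 140.3, 139 and 140.1 TPM in XX ESC, against 169, 159 and 176 TPM in XY ESC. Its fall of 0.26 (adjusted p = 0.0108) was not called without XY ESC replicate 1 (adjusted p = 0.0502). The 5-methylcytosine oxidase gene Tet3 rose by 1.02, with 4.21, 3.69 and 2.67 TPM in XX ESC, against 1.202, 1.26 and 1.18 TPM in XY ESC. The stress and demethylation genes Gadd45a and Gadd45b moved apart, by 0.51 and -0.71 (adjusted p = 0.00261 and 0.00275), and the methyl-binding NuRD gene Mbd3 fell by 0.38.

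Zfp57, which guards methylated imprints, rose by 0.61 (adjusted p = 0.00247), with 308, 227 and 289 TPM in XX ESC, against 171, 177 and 188 TPM in XY ESC. It was the only member called higher of the 22 autosomal genes of imprint protection and H3K9 methylation, of which 1 was called lower (higher 3 with scaling to the autosomal sum or with all 15 libraries in the fit or without XX ESC replicate 3; lower 0 with scaling to the autosomal sum or with no filter on low values or with no trend or without XX ESC replicate 1, 2 or 3 or XY ESC replicate 1 or 2, 2 with median-ratio scaling or with quantile normalization or with all 15 libraries in the fit or without XY ESC replicate 3). Among 30 autosomal Polycomb genes, whose products silence developmental genes, 11 rose and 7 fell (median 0.17, with the count lower 3 without XX ESC replicate 2, 4 without XY ESC replicate 1 or 3). Bmi1, a subunit of PRC1, had 17.8, 18.03 and 17.9 TPM in XX ESC, against 8.19, 8.17 and 6.99 TPM in XY ESC, and Kdm2b, which carries PRC1 to CpG islands, rose by 0.81 (adjusted p = 0.000124). The PRC2 methyltransferase gene Ezh1 and the PRC1 gene Pcgf1 fell by 0.69 and 0.58 (adjusted p = 0.000366 and 0.000568).

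Along the ERK cascade the kinase gene Mapk3 showed the largest fall. Mapk3, which encodes ERK1, had 36.5, 38.4 and 38.1 TPM in XX ESC, against 88.3, 81.6 and 98.1 TPM in XY ESC. All XX libraries lay below 40 TPM and all XY libraries above 80 TPM (log2 fold change -1.22 ± 0.08 (SE), limma adjusted p = 1.30e-05). Of 23 autosomal genes from RAS to ERK, 4 rose and 6 fell (median 0.05, with the count higher 1 without XY ESC replicate 1 or 3, 2 with no filter on low values or without XX ESC replicate 1 or 2 or XY ESC replicate 2). The adaptor gene Shc1 fell by 0.72 and the RAS family gene Rras by 0.77, while the adaptor gene Grb2 rose by 0.34 (adjusted p = 0.000156, 0.00123 and 0.00445). Beside the X-linked Dusp9, 3 of 6 autosomal phosphatases of MAP kinases fell and 2 rose (higher 1 with median-ratio scaling or without XY ESC replicate 1). Dusp6, the feedback phosphatase of ERK in the cytoplasm, had 15.4, 13.5 and 15.2 TPM in XX ESC, against 19.99, 24.4 and 20.1 TPM in XY ESC, Dusp5 fell by 0.66 and Dusp7 by 0.42, and Dusp16, which acts on JNK and p38, rose by 0.54 (adjusted p at most 0.00871).

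Immediate-early genes, which ERK switches on within minutes, fell more often than they rose. Of 18 members 8 fell and 2 rose (median -0.27), against 18% lower and 22.5% higher of all autosomal genes. Of the 8, 1 passed the filter only through XY ESC. The count lower was 5 without XX ESC replicate 1 or XY ESC replicate 3. The count higher was 0 with quantile normalization, with no filter on low values or without XX ESC replicate 2 or XY ESC replicate 1 or 3. It was 1 with median-ratio scaling, with chromosome 13, where Klf6 lies, left out, or without XX ESC replicate 1 or 3. Egr1, a zinc finger factor and direct ERK target, had 5.68, 4.83 and 4.84 TPM in XX ESC, against 19.18, 28.5 and 20.2 TPM in XY ESC. The AP-1 gene Fos had 51.8, 48.8 and 36.1 TPM in XX ESC, against 73.9, 72.95 and 75.8 TPM in XY ESC. Both were below every XY library (log2 fold change -1.93 ± 0.15 (SE), limma adjusted p = 2.70e-05, for Egr1 and -0.71 ± 0.12, adjusted p = 0.0021 for Fos). Atf3 and Klf6, stress-responsive factors, were the members called higher, at 0.68 and 0.36 (adjusted p = 0.0322 and 0.0347). Atf3 was not called without XX ESC replicate 2 or 3 or XY ESC replicate 1 or 3 (adjusted p of 0.0652 to 0.104), nor Klf6 without any of XX ESC replicates 1 to 3 or XY ESC replicates 1 and 3 (0.0513 to 0.102). Among the Sprouty, Spred and ETV feedback genes 4 of 11 fell and 1 rose (lower 1 without XX ESC replicate 2 or XY ESC replicate 2, 2 with no filter on low values or without XY ESC replicate 1 or 3; higher 3 without XX ESC replicate 2), with Spry1, an inhibitor of receptor signalling, at 8.36, 8.35 and 7.89 TPM in XX ESC, against 11.3, 12.6 and 11.8 TPM in XY ESC (-0.49 ± 0.09, adjusted p = 0.00275).

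FGF ligand and receptor genes split evenly, 3 of 13 autosomal members each way. Of the 3 that fell 1, Fgf8, passed the filter only through XY ESC. Fgf4, the ligand that drives ERK in ESC, had 199, 203 and 195 TPM in XX ESC, against 169.7, 159 and 169.9 TPM in XY ESC (log2 fold change 0.26 ± 0.06 (SE), limma adjusted p = 0.00971), and the receptor gene Fgfr3 rose by 1.23 to 5.27, 4.22 and 6.45 TPM in XX ESC, against 1.697, 1.48 and 1.81 TPM in XY ESC. Fgf17 fell by 0.63 (adjusted p = 0.00936). Of 16 genes of LIF and STAT3 signalling, which keeps ESC self-renewing, 2 rose and 4 fell. The count higher was 1 with chromosome 13, where Il6st lies, left out, or without XX ESC replicate 1 or XY ESC replicate 2 or 3. The receptor subunit gene Il6st rose by 0.52 and Stat3 fell by 0.36 (adjusted p = 0.0102 and 0.00398). Socs2, a feedback inhibitor of cytokine receptors, had 27.2, 25.8 and 27.1 TPM in XX ESC, against 43.9, 53.9 and 51.6 TPM in XY ESC, with XX ESC lower in every library.

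In the NODAL and BMP pathway 8 of 28 members rose and 3 fell (median 0.14), against 22.5% and 18% of all autosomal genes. The count lower was 5 with quantile normalization. Lefty2, a secreted NODAL inhibitor and target, had 87.8, 88.5 and 105 TPM in XX ESC, against 30.9, 38.9 and 39.2 TPM in XY ESC. Id2, an inhibitor of helix-loop-helix factors that BMP induces, had 44.4, 46.8 and 24.3 TPM in XX ESC, against 15.03, 16.99 and 12.9 TPM in XY ESC, lowest among XX libraries in replicate 3 and still above every XY library. The log2 fold changes were 1.35 ± 0.11, adjusted p = 3.85e-05 for Lefty2 and 1.26 ± 0.22, adjusted p = 0.0022 for Id2. Pcsk6, a protease that matures NODAL, rose by 1.09 and Id4 by 0.71, while the ligand gene Bmp7 fell by 0.71 and the SMAD corepressor gene Skil by 0.54 (adjusted p at most 0.00557). Tdgf1, the NODAL co-receptor, had 1289, 1176 and 1435 TPM in XX ESC, against 1112, 1202 and 1083 TPM in XY ESC, with overlapping groups (0.20 ± 0.08, adjusted p = 0.0904). It was called higher with scaling to the autosomal sum (adjusted p = 0.0402), with all 15 libraries in the fit (0.0471) and without XX ESC replicate 2 (0.0426).

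In the WNT pathway 7 of 23 autosomal members fell and 2 rose (median log2 fold change near 0), and 3 of the 7 passed the filter only through XY ESC. Without XX ESC replicate 3 the counts were 8 lower and 6 higher, and among genes with a mean of at least 5 TPM 3 fell. Tcf7, a transcription factor of this pathway, had 44.1, 48.1 and 46.3 TPM in XX ESC, against 66.5, 66.3 and 67.97 TPM in XY ESC, and the repressive Tcf7l1 rose by 0.44 (adjusted p = 0.000419 and 0.0113). The secreted WNT inhibitor gene Notum rose by 1.35 (adjusted p = 0.00335). The feedback ligase gene Rnf43 and the homeobox target Cdx1 fell by 0.75 and 0.94, and both reached 1 TPM in at least 2 libraries of XY ESC only. In the Notch pathway 6 of 18 members fell, 2 of them passing the filter only through XY ESC, and 4 rose (higher 1 without XY ESC replicate 1, 2 with quantile normalization or with no filter on low values or without XX ESC replicate 1 or XY ESC replicate 3). The ligand gene Dll1 had 3.43, 2.79 and 1.84 TPM in XX ESC, against 9.88, 7.79 and 9.01 TPM in XY ESC, the ligand gene Jag2 fell by 0.77, and Rbpj, the DNA-binding partner of Notch, rose by 0.73 (adjusted p = 0.000242, 0.000584 and 0.00108).

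Imprinted genes listed as paternally expressed rose more often than they fell, and those listed as maternally expressed fell more often. The difference between these sets was not tested. Each gene stands on 1 side only, although Ddc, listed as maternal, and H13, listed as paternal, have transcripts read from the other copy. Of 26 genes listed as paternally expressed 15 rose and 4 fell (median 0.45). Of 20 listed as maternally expressed 3 rose and 7 fell (median -0.07). Among all autosomal genes 22.5% rose and 18% fell. Of the 15, 3 passed the filter only through XX ESC, and of the 7, 1 only through XY ESC. Ndn, a growth suppressor of the Prader-Willi domain on chromosome 7, had 32.3, 30.6 and 28.96 TPM in XX ESC, against 9.91, 9.09 and 8.81 TPM in XY ESC, and its neighbour Peg12 had 15.4, 11.99 and 17.1 TPM in XX ESC, against 4.08, 3.76 and 3.68 TPM in XY ESC. Plagl1, a zinc finger regulator of other imprinted genes, had 22.3, 16.1 and 13.9 TPM in XX ESC, against 2.38, 4.303 and 1.87 TPM in XY ESC. All 3 were higher in every XX library (log2 fold changes 1.62 ± 0.09, adjusted p = 4.15e-06 for Ndn, 1.70 ± 0.13, adjusted p = 2.83e-05 for Peg12 and 2.28 ± 0.24, adjusted p = 0.00013 for Plagl1). Zrsr1 rose by 0.88. Of the paternally expressed genes that fell, Nnat, a brain proteolipid gene, had 2.15, 1.93 and 2.01 TPM in XX ESC, against 8.16, 10.2 and 10.3 TPM in XY ESC, and the amino acid carrier gene Slc38a4 had 34.4, 92.2 and 53.8 TPM in XX ESC, against 207, 176 and 201 TPM in XY ESC, with XX ESC replicate 2 the highest of its group. Igf2, the fetal growth factor, fell by 1.64 (adjusted p = 0.00627) and was also highest in replicate 2 of its group, with 3.79, 8.58 and 2.08 TPM in XX ESC, against 11.9, 19.4 and 15.1 TPM in XY ESC.

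On the maternal side Phlda2, a growth-limiting gene of the Kcnq1 domain (chromosome 7, 143501545 to 143503150), had 9.72, 10.03 and 12.6 TPM in XX ESC, against 78.6, 72.8 and 93.3 TPM in XY ESC. The lowest XY library was more than 5 times the highest XX library (log2 fold change -2.81 ± 0.12 (SE), limma adjusted p = 1.49e-06). Its neighbour Slc22a18 fell by 1.16. Grb10, which holds back insulin and IGF receptors, had 25.2, 25.9 and 24.6 TPM in XX ESC, against 94.6, 87.2 and 86.4 TPM in XY ESC, and the non-coding RNA Meg3 of the Dlk1-Dio3 domain had 53.9, 50.8 and 46.5 TPM in XX ESC, against 199, 182 and 214 TPM in XY ESC. Grb10 and Meg3 were well separated and varied little within groups (-1.78 ± 0.07, adjusted p = 1.09e-06 and -1.95 ± 0.08, adjusted p = 1.49e-06). Ddc, which shares the Grb10 domain and was only listed as maternal, rose by 0.96, and Igf2r, the receptor that clears IGF2, rose by 0.40 (adjusted p = 0.00042 and 0.0107). Which parental copy was read cannot be told from these values.

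Interferon response genes went both ways around the rise of Ube2l6, with 10 of 22 higher and 7 lower (median -0.10, and 6 and 4 without XX ESC replicate 1), and 2 of the 10 passed the filter only through XX ESC. Oas1a, which makes a signal for RNA decay, had 16.7, 10.7 and 19.5 TPM in XX ESC, against 3.54, 3.56 and 3.67 TPM in XY ESC. The antiviral adaptor gene Mavs rose by 0.70 and the factor gene Irf1 by 0.60, both with no overlap. Ifitm1, a membrane protein of interferon response and of germ cells, had 182, 196 and 245 TPM in XX ESC, against 321, 344 and 407 TPM in XY ESC, and the factor gene Irf3 fell by 0.38 (adjusted p = 0.0066). The immunoproteasome gene Psmb8 fell by 1.05 (adjusted p = 0.00816), with 1.01, 2.38 and 0.979 TPM in XX ESC, against 3.12, 5.53 and 3.46 TPM in XY ESC. Of 19 tested genes with H2- symbols 8 rose and 3 fell (median -0.01), and 1 of the 8 passed the filter only through XX ESC. The 19 genes include H2-Ke2 and H2-Ke6, which lie in the MHC region and are not class I or II genes. The class II gene H2-Eb1 had 19.6, 18.3 and 13.2 TPM in XX ESC, against 0.902, 1.27 and 1.73 TPM in XY ESC, and H2-Ab1 rose by 1.12. The class Ib gene H2-M5 rose by 1.13, while H2-Q2 and H2-Q4 fell by 1.53 and 1.02 (adjusted p at most 0.000574). MHC genes are similar in sequence, and how shared reads were counted is not given.

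Contractile genes fell more often than they rose, where all autosomal genes had 18% lower and 22.5% higher. Of 16 tested members 12 fell and 1 rose (median log2 fold change -1.37), and 3 of the 12 passed the filter only in XY ESC. Tagln, the smooth muscle protein transgelin, had 6.26, 12.1 and 4.54 TPM in XX ESC, against 48.9, 57.05 and 53.6 TPM in XY ESC. Acta2, smooth muscle actin, had 2.53, 3.83 and 1.701 TPM in XX ESC, against 15.7, 23.2 and 16.7 TPM in XY ESC. XX ESC replicate 2 was the highest of its group for both, yet below all XY libraries (log2 fold change -2.74 ± 0.26 (SE), limma adjusted p = 8.27e-05, for Tagln and -2.43 ± 0.22, adjusted p = 5.61e-05 for Acta2). Myl3, a slow muscle myosin light chain gene, had 0.167, 0.741 and 0.214 TPM in XX ESC, against 14.1, 9.59 and 15.5 TPM in XY ESC. The skeletal actin gene Acta1 had 1.79, 3.47 and 1.81 TPM in XX ESC, against 18, 23.7 and 22.5 TPM in XY ESC. The intermediate filament gene Des, with 6.71, 8.28 and 6.52 TPM in XX ESC, against 28.1, 23.6 and 22.1 TPM in XY ESC, fell by 1.65, and the calponin gene Cnn2 by 1.47 (adjusted p = 2.27e-05 and 2.56e-05). Myl7, an atrial myosin light chain gene, was the member that rose, with 21.3, 18.5 and 27.5 TPM in XX ESC, against 8.702, 10.1 and 9.4 TPM in XY ESC (1.16 ± 0.14, adjusted p = 0.000289); without XX ESC replicate 3 the count higher was 2. Tagln2, which most cell types express, had 254, 265 and 313 TPM in XX ESC, against 238, 230.2 and 268 TPM in XY ESC, and its groups overlapped.

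Fibroblasts also express some of these genes, so the fibroblast markers were set beside them. Of 11 autosomal fibroblast markers 6 fell and 2 rose (higher 1 with quantile normalization or without XX ESC replicate 1 or XY ESC replicate 1 or 3), and Tagln and Acta2 stand in both lists. Col1a1, a chain of type I collagen, had 1.47, 1.07 and 1.15 TPM in XX ESC, against 1.93, 2.62 and 2.397 TPM in XY ESC. Col1a2, its partner chain, had 0.804, 0.829 and 0.984 TPM in XX ESC, against 1.803, 3.39 and 1.84 TPM in XY ESC. They fell by 0.57 and 0.81 (adjusted p = 0.00846 and 0.00743). Neither was called when all 15 libraries shared 1 estimate of spread (adjusted p = 0.203 and 0.0612). Of the 6 fallers 1, Col1a2, passed the filter only through XY ESC. Of the 2 risers 1 passed only through XX ESC. The feeder marker Thy1 had 1.68, 0.935 and 2.9 TPM in XX ESC, against 0.601, 1.18 and 0.957 TPM in XY ESC. The X-linked feeder marker Bgn had 4.49, 4.68 and 2.64 TPM in XX ESC, against 3.79, 4.04 and 3.38 TPM in XY ESC. Neither Thy1 nor Bgn was called. The feeder markers Lum and Dcn stayed below 0.2 TPM in every library, and the part of feeder cells in the contractile falls was not tested. Fewer cells of a type and less RNA per cell cannot be told apart in such libraries.

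Tubulin isotypes moved the other way from the contractile genes, with 10 of 15 higher and 1 lower (median 0.42, with the count lower 0 without XX ESC replicate 1 or 2 or XY ESC replicate 2 or 3, 2 with quantile normalization). Tuba3a, an alpha tubulin of the testis, had 170.1, 132 and 152 TPM in XX ESC, against 30.6, 27.96 and 33.1 TPM in XY ESC, and Tuba3b, a similar gene elsewhere on chromosome 6, had 10.1, 10.1 and 15.1 TPM in XX ESC, against 0.763, 0.449 and 0.675 TPM in XY ESC. Reads shared by this pair could have been split either way. Of the 10 risers 1, Tuba3b, passed the filter only through XX ESC. Both genes of the pair also stand on the list of other germline genes. Tubb2a, a beta tubulin of neurons, had 101.3, 91.2 and 119 TPM in XX ESC, against 24.9, 24.3 and 24.5 TPM in XY ESC. The more general Tuba1c had 395, 373 and 375 TPM in XX ESC, against 215, 226 and 227 TPM in XY ESC. Each of these stood higher in every XX library, by 2.27, 2.95, 2.03 and 0.77 (adjusted p at most 2.92e-05). Tubb2a lies on chromosome 13 and kept its call without XX ESC replicate 3. Tuba4a, with 25.99, 25.2 and 30.1 TPM in XX ESC, against 31.8, 34.9 and 34.6 TPM in XY ESC, was the isotype that fell (-0.31 ± 0.09, adjusted p = 0.0235), a call lost without XX ESC replicate 1 or 2 or XY ESC replicate 2 or 3 (adjusted p of 0.0633 to 0.0806).

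**Figure D3:**
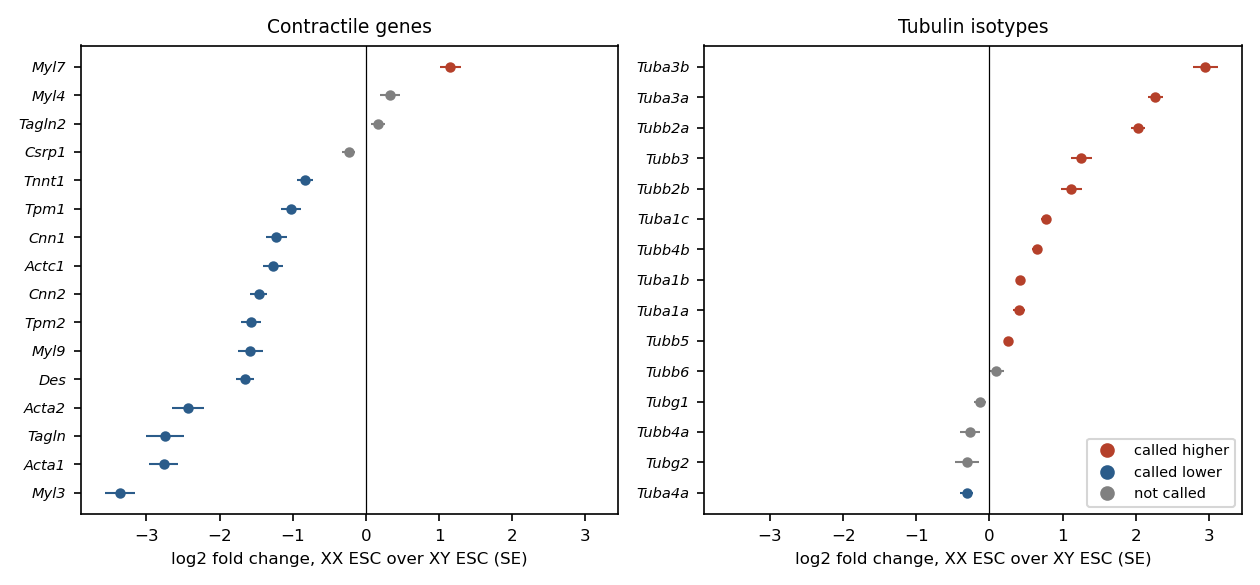
Log2 fold changes (x axis, XX ESC over XY ESC, bars are SE) of the tested contractile genes (left) and tubulin isotypes (right), in red where called higher, blue where called lower and grey where not called. The contractile genes reach -3.36 at Myl3, and the tubulins reach 2.95 at Tuba3b. Each of these 2 genes passed the filter only through the group where it was higher.

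Keratins and several tight junction genes were also lower in XX ESC. Krt8 and Krt18, the paired keratins of simple epithelia, had 20.6, 40.2 and 14.4 TPM in XX ESC, against 65.5, 77.3 and 68.8 TPM in XY ESC (Krt8) and 30.1, 64.3 and 23.9 TPM in XX ESC, against 91.1, 102 and 85.8 TPM in XY ESC (Krt18). Krt7 had 3.22, 6.91 and 2.09 TPM in XX ESC, against 10.75, 9.26 and 11.9 TPM in XY ESC. In each of these keratins XX ESC replicate 2 was highest of its group and still below every XY library, with falls of 1.58, 1.34 and 1.31 (adjusted p = 0.00282, 0.00646 and 0.007). Cldn6, a claudin of early epithelium, had 22.5, 33.9 and 15.1 TPM in XX ESC, against 68.9, 74 and 70.97 TPM in XY ESC. Cldn7 fell by 1.07, the tight junction scaffold gene Tjp3 by 1.33 and the epithelial splicing factor gene Esrp1 by 1.04 (adjusted p at most 0.000664). Of 22 epithelial adhesion genes 6 fell and 5 rose (median -0.04, with the count higher 2 with quantile normalization or with no filter on low values or without XX ESC replicate 1 or 2 or XY ESC replicate 1, 3 without XY ESC replicate 3). The desmoplakin gene Dsp rose by 0.75 and Zeb1, a repressor of epithelial genes, by 0.63.

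Early lineage genes were mostly at low levels. Of 13 trophoblast genes 6 rose and 5 fell, with falls in Krt7, Krt8, Krt18 and Krt19 (by 0.48). The trophoblast factor Cdx2 stayed below 0.1 TPM in all libraries, and the galectin gene Lgals3 rose by 1.22, with 52.3, 58.9 and 50.9 TPM in XX ESC, against 22.7, 20.8 and 24.1 TPM in XY ESC. Gata2 and Tfap2a, trophoblast factors, rose by 0.96 and 0.86. Of the 6 trophoblast genes that rose 2, Tfap2a among them, passed the filter only through XX ESC. Of 13 autosomal primitive endoderm genes 7 rose and 3 fell, of which 2 risers and 1 faller passed the filter only through the group where they were higher (lower 5 with quantile normalization). Hnf4a had 1.67, 1.496 and 1.31 TPM in XX ESC, against 0.103, 0.0693 and 0.117 TPM in XY ESC, and Sox7 had 1.33, 0.809 and 1.58 TPM in XX ESC, against 0.178, 0.158 and 0.183 TPM in XY ESC, both under 2 TPM throughout. The collagen gene Col4a1 rose by 1.08 and Sparc by 0.47, while Dab2 fell by 1.35 and the collagen chaperone gene Serpinh1 by 0.91. Gsc, an organizer gene, rose by 1.37 with 3.74, 3.66 and 5.502 TPM in XX ESC, against 0.609, 1.22 and 1.31 TPM in XY ESC. Of 39 HOX genes 8 were tested and 7 rose, but 6 of the 7 passed the filter only through XX ESC, so this count follows in part from the filter. Hoxc13, which passed in both groups, had 4.95, 5.16 and 4.66 TPM in XX ESC, against 2.23, 1.88 and 1.797 TPM in XY ESC. Of 17 listed genes of the transient state that resembles 2-cell embryos, only 5 were tested. All 5 rose, against 22.5% of all autosomal genes, 2 of them passing only in XX ESC. They were Zscan4c, Zscan4d, Zscan4e, Zscan4f and Eif1a, a general translation initiation factor gene. Zscan4f had 7.59, 7.16 and 17 TPM in XX ESC, against 3.29, 3.61 and 3.42 TPM in XY ESC and Zscan4c 2.54, 2.74 and 6.402 TPM in XX ESC, against 1.19, 1.45 and 1.097 TPM in XY ESC, with XX ESC replicate 3 the highest. The Zscan4 copies are near-identical, so single members are uncertain.

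Housekeeping programmes moved by smaller steps. Of 81 autosomal cytosolic ribosomal protein genes 46 fell and 6 rose (median -0.22). The sum over all 86 listed genes, X-linked ones included, was 173067 to 185090.4 TPM in XX ESC, against 199935 to 212593 TPM in XY ESC. The number lower was 20 with quantile normalization, 26 without XX ESC replicate 2, 27 with no filter on low values, 28 without XX ESC replicate 1; higher it was 3 without XX ESC replicate 1 or XY ESC replicate 1. Rpl13a had 3198, 3293 and 3764 TPM in XX ESC, against 5396, 5374 and 6209 TPM in XY ESC and Rps25 1558, 1588 and 1637 TPM in XX ESC, against 2218, 2255 and 2268 TPM in XY ESC, below all XY libraries in both cases (log2 fold change -0.73 ± 0.09 (SE), limma adjusted p = 0.000283, and -0.49 ± 0.06, adjusted p = 0.000223). Ribosomal protein genes have many pseudogene copies, which could take reads. Rpl39l, a testis form, had 49.1, 43.9 and 77.1 TPM in XX ESC, against 12.4, 13.4 and 13.4 TPM in XY ESC, so it went against the group (1.99 ± 0.18, adjusted p = 5.97e-05). Of 76 mitochondrial ribosomal protein genes 6 rose and 9 fell (higher 3 with median-ratio scaling or without XY ESC replicate 1; lower 17 with quantile normalization).

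Chaperone and proteasome genes rose more often than they fell. Of 24 heat shock and chaperone genes 8 rose and 0 fell (median 0.08), against 22.5% and 18% of all autosomal genes, and 1 was called lower with quantile normalization. The small heat shock gene Hspb1 had 623, 576 and 596 TPM in XX ESC, against 335, 289 and 389.7 TPM in XY ESC, and the mitochondrial chaperonin gene Hspd1 had 707, 705 and 748 TPM in XX ESC, against 439, 519 and 414 TPM in XY ESC. Hspa8, an abundant HSP70 gene, had 2772, 2846 and 2920.3 TPM in XX ESC, against 2002, 2250.1 and 2158 TPM in XY ESC. Each was above all XY libraries, by 0.83, 0.66 and 0.41, and Hsph1 rose by 0.47 (adjusted p at most 0.00343). Of 46 autosomal proteasome genes 16 rose and 4 fell (median 0.14). With quantile normalization 11 rose and 8 fell, so the direction was weaker there. Psma8, a testis subunit, rose by 1.1 to 27.2, 29 and 29.8 TPM in XX ESC, against 13.2, 13.3 and 11.98 TPM in XY ESC. Psmd1 and Psmb2 of the constitutive particle rose by 0.55 and 0.44, and the interferon-inducible activator gene Psme1 fell by 0.50.

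Metabolic genes showed single large changes. Me1, the cytosolic malic enzyme that supplies NADPH, had 104, 114 and 90.5 TPM in XX ESC, against 25.7, 24.3 and 23.4 TPM in XY ESC, about 4 times higher by the means (log2 fold change 2.02 ± 0.09 (SE), limma adjusted p = 2.10e-06). Ldhb, a subunit of lactate dehydrogenase, had 378, 390.4 and 368 TPM in XX ESC, against 887, 954 and 923 TPM in XY ESC. It fell by 1.28 (adjusted p = 2.20e-06), as did the aldolase gene Aldoc by 0.95 and the enolase genes Eno3 and Eno2 by 1.19 and 1.1. Of 29 autosomal glycolysis and pyruvate genes 5 rose and 8 fell (median -0.10, with the count higher 8 with scaling to the autosomal sum). Of 26 autosomal genes of cholesterol and fatty acid synthesis 11 fell and 2 rose (median -0.16, with the count lower 7 without XX ESC replicate 1 and higher 1 with quantile normalization or with no filter on low values or without XX ESC replicate 1 or 2 or XY ESC replicate 2 or 3). The sterol genes Lss, with 14.4, 14.6 and 14.5 TPM in XX ESC, against 22.8, 24.3 and 27.2 TPM in XY ESC, Fdft1 and Mvd fell by 0.73, 0.54 and 0.53, Srebf1, a regulator of lipid synthesis, fell by 0.45, and the fatty acid elongase gene Elovl6 rose by 0.34 (adjusted p at most 0.00653). Of 23 autosomal genes of the ATF4 response to amino acid shortage 8 rose and 1 fell (higher 3 with no filter on low values or without XX ESC replicate 1 or 3 or XY ESC replicate 2, 4 with median-ratio scaling or with quantile normalization or without XY ESC replicate 1, 5 with no trend; lower 2 without XY ESC replicate 2, 3 with quantile normalization or without XX ESC replicate 3). Asns, asparagine synthetase, had 459, 391 and 457 TPM in XX ESC, against 302, 327 and 302 TPM in XY ESC. Atf5 and Chac1 rose by 0.87 and 1.17, and Ddit3, a stress factor that promotes cell death, fell by 0.59 (adjusted p at most 0.00914).

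**Figure D4:**
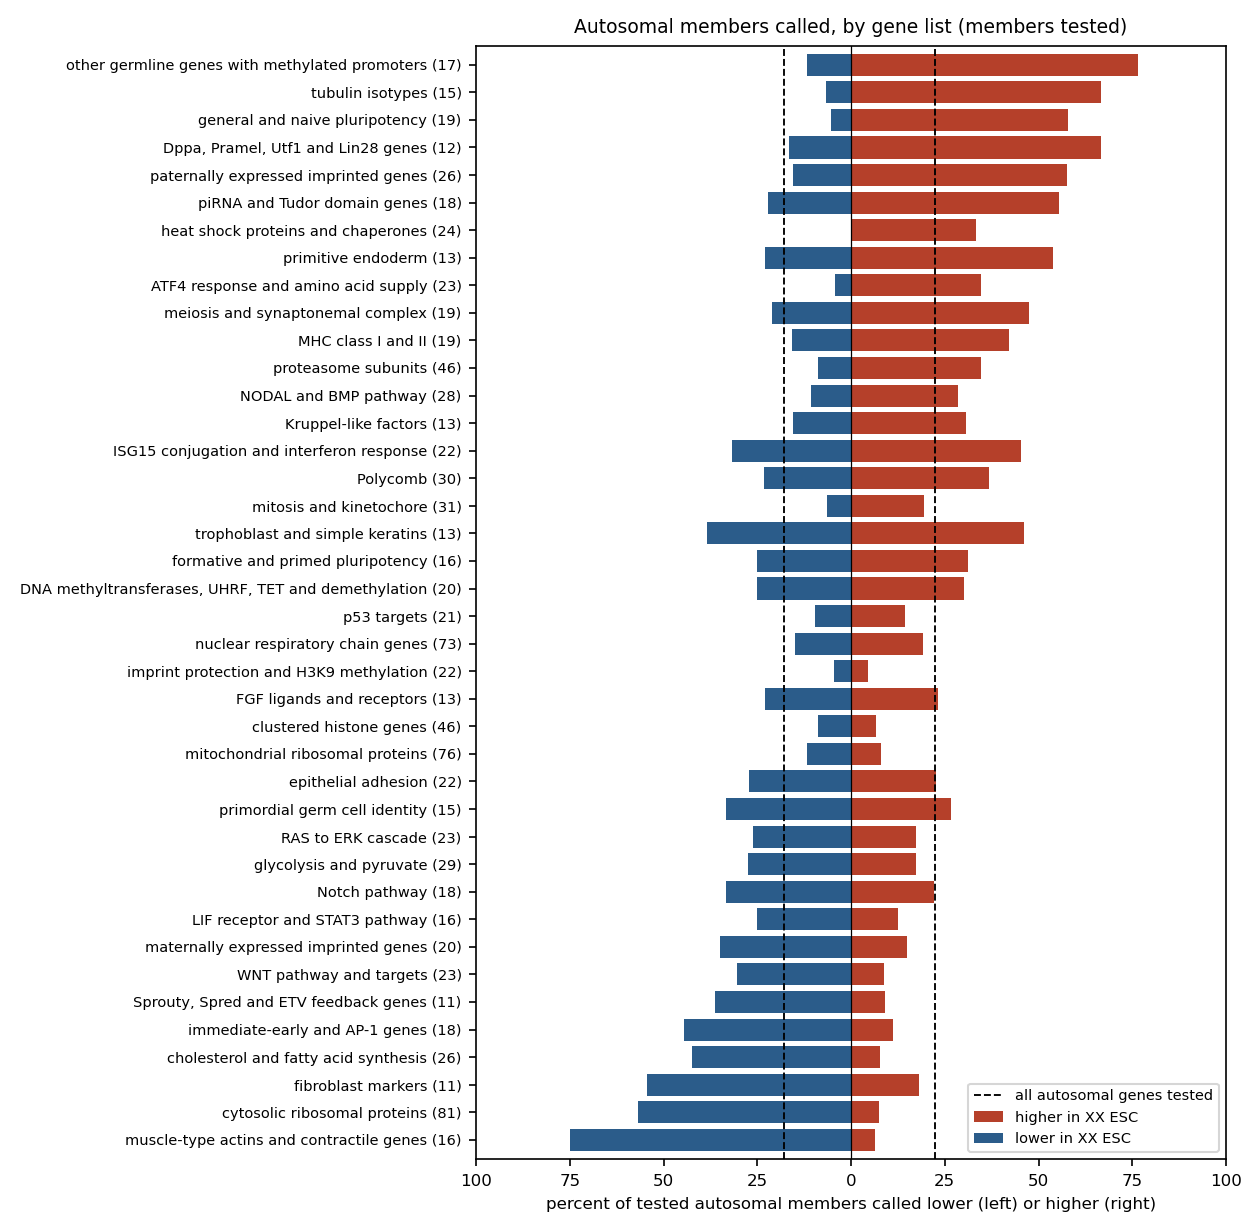
Percent of the tested autosomal members (number in brackets) called higher in XX ESC (red, right) or lower (blue, left) for each gene list with at least 10 such members, ordered by the difference. Dashed lines mark 22.5% higher and 18% lower for all autosomal genes. The lists run between the other germline genes (13 higher and 2 lower of 17) and contractile genes (1 higher and 12 lower of 16).

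Genes of varied function had other large falls. Rgs11, a regulator of G protein signalling, had 3.52, 4.15 and 2.49 TPM in XX ESC, against 21.4, 18.8 and 23.3 TPM in XY ESC, and Sh2d5, an adaptor gene, had 1.27, 1.204 and 1.32 TPM in XX ESC, against 7.87, 6.12 and 8.84 TPM in XY ESC. Crmp1, which guides axons, had 2.01, 2.45 and 1.199 TPM in XX ESC, against 9.17, 8.47 and 9.81 TPM in XY ESC. Each lay lower in every XX library, by 2.35, 1.91 and 1.84 (adjusted p at most 5.88e-05). Ece1, the endothelin-converting enzyme gene, had 3.82, 2.93 and 2.92 TPM in XX ESC, against 41.1, 11.8 and 12.2 TPM in XY ESC, so XY ESC replicate 1 was more than 3 times the other XY libraries (-2.19 ± 0.40, adjusted p = 0.00247). Mef2b, a MADS-box factor gene, had 0.258, 0 and 0 TPM in XX ESC, against 9.67, 9.01 and 0.603 TPM in XY ESC, with XY ESC replicate 3 far below the other XY libraries. Its fall of 2.36 (adjusted p = 0.0144) was not called without XY ESC replicate 2 (adjusted p = 0.0566).

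The XX and XY difference in ESC was set against that in E11.5 EGC, which share no library with it. At an adjusted p under 0.05, the ESC difference exceeded the EGC difference for 1113 autosomal genes (8.88%) and was below it for 916 (7.31%), or for 9.29% and 7.1% of all genes. Of the 5072 autosomal genes called in ESC, 988 (19.5%) had such a difference between the cell types. These counts rest on few libraries: with 1 library left out they ran from 362 to 1842 and from 257 to 1160, lowest without E11.5 XX EGC replicate 1 and highest for the first without XX ESC replicate 3. Of the 6 largest positive differences 5 were in immediate-early or AP-1 genes. Fos had 29.3 and 19.3 TPM in E11.5 XX EGC, against 604, 711 and 565 TPM in E11.5 XY EGC, so its log2 fold change was -0.71 in ESC and -4.66 in EGC. Fosb had 1.699 and 0.547 TPM in E11.5 XX EGC, against 98.8, 114 and 95.4 TPM in E11.5 XY EGC (-0.63 in ESC and -5.66 in EGC). The gap was thus much wider in EGC. Egr1 fell in ESC by 1.93 and had -5.18 in EGC, and Dll1 fell by 1.44 and had -4.17. Atf3 and Klf6 went opposite ways, at 0.68 and 0.36 in ESC and -2.94 and -1.91 in EGC.

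Among the leading genes, Asz1 and Ube2l6 had larger differences in ESC, with 3.04 and 4.15 in ESC and 1.70 and 2.86 in EGC. The differences of the differences were 1.34 (adjusted p = 0.0453) and 1.28 (adjusted p = 0.00584). Asz1 lost this call with any 1 of 9 of the 11 libraries left out (adjusted p up to 0.135). The 9 were E11.5 XX EGC replicates 1 and 2, E11.5 XY EGC replicates 1 and 2, XX ESC replicates 1 and 2 and all 3 XY ESC replicates. Phlda2 fell more in ESC (-2.81 in ESC and -1.29 in EGC, adjusted p = 0.00111), and Dusp9 rose less (1.18 and 2.03, adjusted p = 0.00127). Nanog had 1.03 in ESC and 0.76 in EGC, a difference of 0.27 (adjusted p = 0.0634), which was called without XY ESC replicate 2 (adjusted p = 0.0382). Klf4, higher in XX ESC by 1.23, had -0.96 in EGC, with 112 and 117 TPM in E11.5 XX EGC, against 212, 229 and 229 TPM in E11.5 XY EGC (difference 2.19, adjusted p = 0.000132). Grb10 had 25.1 and 25.7 TPM in E11.5 XX EGC, against 8.36, 7.13 and 97.3 TPM in E11.5 XY EGC, so the third XY EGC library was far above the others and the difference of -2.22 was not called (adjusted p = 0.162). Pramel7, Meg3, Myl3 and Tuba3a had 3.95, -1.76, -3.96 and 2.20 in EGC, beside 3.83, -1.95, -3.36 and 2.27 in ESC (adjusted p of the difference at least 0.155).

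**Figure D5:**
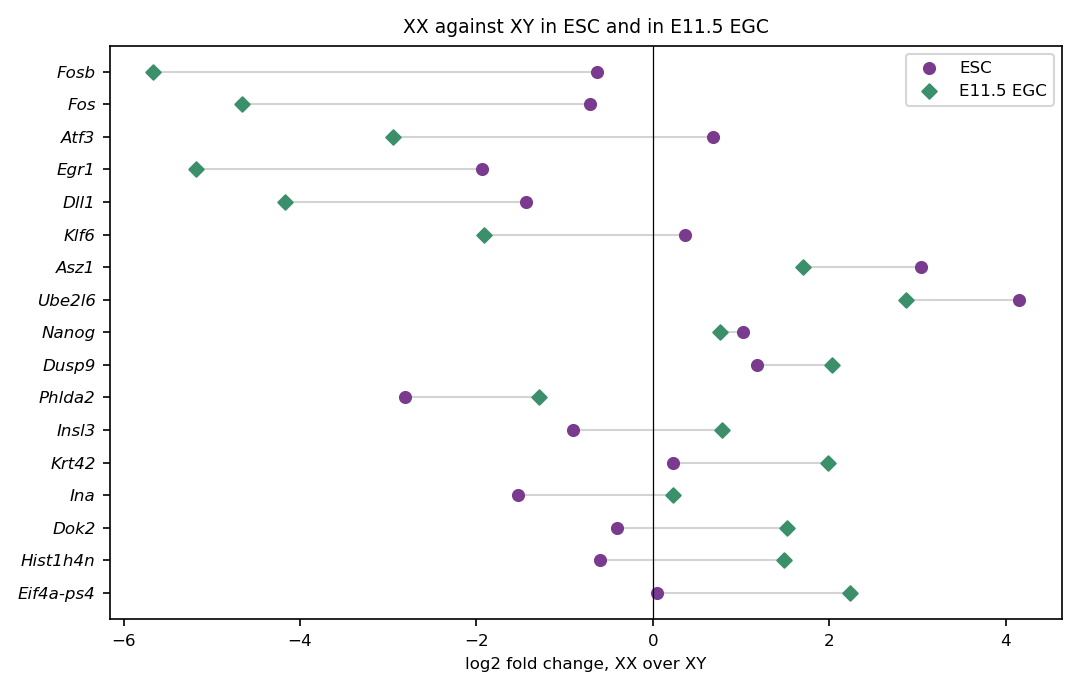
Log2 fold changes of XX over XY (x axis) in ESC (purple circles) and in E11.5 EGC (green diamonds) for 17 genes (y axis), joined by a grey line and ordered by their difference. Fosb lies at -0.63 in ESC and -5.66 in E11.5 EGC, and Eif4a-ps4 at 0.05 and 2.23.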

How the data were processed

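Polyadenylated RNA was sequenced as TruSeq paired-end libraries on an Illumina instrument, per the labels' protocols. The authors deposited 1 table of TPM values, which sum to 1000000 in each library, and the submitters' processing notes list, without role or order, edgeR 3.8.6, HTSeq 0.6.0, STAR 2.3.0, Picard 1.100, SAMtools 0.1.18.0 and GRCm38 (mm10). TPM carries no depth, so no counting error was computed. How the authors scaled values, treated shared reads and used strand is not given in the sources used here. Karyotype comes from the table header, where a blank cell was read with the label at its left. Positions are from GENCODE M21 (30624 of 34372 genes matched by symbol or older symbol) and promoter windows from RefSeq (GRCm38.p6; 9146 of 13385 tested genes, 68.3%; the first window where a gene has several).

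Groups were compared by limma 3.58.1 (R 4.3.3) after a log2(TPM + 1) transform, a moderated test with mean-variance trend, two-sided, Benjamini-Hochberg adjusted over all 13385 genes, threshold 0.05, 4 residual degrees of freedom. Fold changes understate genes near 1 TPM. The difference of differences used 11 libraries and 7 residual degrees of freedom. Alternatives were other scalings, filters, a pseudocount of 0.1, no trend, a fit on all 15 libraries, chromosome 13 left out and each library left out. The script was tested on simulated data. Members, 50 gene lists and tests were chosen with earlier results of these data known. Named genes are 5 given markers, the 12 largest autosomal calls in each direction and the 5 largest X-linked ones, up to 4 called in each direction and 2 uncalled members per list, the 6 largest differences of differences in each direction and 4 chromosome 13 genes. Predicted genes were left out of the rankings. Those discussed were picked from these after their values were seen. Col1a1 is outside the rule, and Thy1 and Bgn were added as feeder markers. Python 3.11.15 and matplotlib 3.10.9 were used for figures.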

Additional observations from a re-analysis of the deposited data

Results flagged for a closer look

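The results below were marked because the XX and XY difference in ESC and in E11.5 EGC differed by a direct test (difference of the log2 fold changes, ESC minus E11.5 EGC, limma over 11 libraries). Autosomal genes with such a call made up 8.88% in the positive and 7.31% in the negative direction. The 6 largest positive values were 5.03 ± 0.27 (SE) for Fosb, 3.95 ± 0.23 for Fos, 3.63 ± 0.28 for Atf3, 3.25 ± 0.21 for Egr1, 2.73 ± 0.25 for Dll1 and 2.27 ± 0.15 for Klf6. Each of these genes was lower in XX than in XY E11.5 EGC. The 6 largest negative values were -2.18 ± 0.55 for the pseudogene Eif4a-ps4, -2.08 ± 0.48 for the histone gene Hist1h4n, -1.93 ± 0.28 for the adaptor gene Dok2, -1.76 ± 0.25 for the neurofilament gene Ina, -1.75 ± 0.23 for the keratin gene Krt42 and -1.69 ± 0.34 for the hormone gene Insl3. Of these, Ina had 1.94, 2.51 and 1.69 TPM in XX ESC, against 6.62, 8.88 and 7.86 TPM in XY ESC, with XX ESC lower throughout, and Insl3 had 0.657, 0.348 and 1.17 TPM in XX ESC, against 2.75, 1.19 and 2.89 TPM in XY ESC. Insl3 passed the filter only in XY ESC, and its call in ESC (adjusted p = 0.0182) was lost without XX ESC replicate 1 or 2 or XY ESC replicate 1 or 3 (adjusted p of 0.0529 to 0.0712). Eif4a-ps4 lost the call on the difference without E11.5 XX EGC replicate 2 (adjusted p = 0.091), E11.5 XY EGC replicate 2 (0.0548) or XY ESC replicate 3 (0.0516), and Hist1h4n without E11.5 XX EGC replicate 2 (0.0678). Of the 5 given markers, Asz1 (1.34 ± 0.41) and Ube2l6 (1.28 ± 0.22) were positive and Dusp9 (-0.85 ± 0.10) and Phlda2 (-1.52 ± 0.18) negative. No group held 4 or more libraries, so no library could be called an outlier within its group.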

How the results depend on the processing

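The counts of genes called between XX and XY ESC stayed within 1.5 times of those reported under all 15 alternatives, at 1922 to 3295 higher and 1653 to 3147 lower for autosomal genes. The counts for the difference between cell types did not. With 1 library left out they were 362 to 1842 higher and 257 to 1160 lower for autosomal genes, and 402 to 2018 and 275 to 1203 for all genes; the cause was not tested. Of 182 called genes named in the text 9 lost the call under at least 1 alternative, and none changed sign. A gene that an alternative did not test could not be counted as lost there. This holds for low genes at a mean of at least 5 TPM and for genes of chromosome 13 where it was left out. The sign reversed for genes that were not called: Eif4a-ps4 had -0.0034 with median-ratio scaling, -0.0183 with quantile normalization and -0.0236 without XX ESC replicate 1, and Hist1h2bc had -0.0126 and -0.0379 under the same scalings. With 1 library left out, the gene Hist1h2bc ran from -0.3118 to 0.2731, the gene Cltb from -0.202 to 0.3385 and the gene Cox7c from -0.154 to 0.3572, each lowest without XX ESC replicate 3, and the gene Hist1h2aj from -0.5047 to 0.3772. Asz1 (adjusted p = 0.112) and Ube2l6 (0.097) lost the call on the difference between cell types with a pseudocount of 0.1. A filter at a mean of 5 TPM, which tests fewer genes, lowered by over 1.5 times the counts of several lists with many low genes. Unknown depth limits what can be said of genes near 1 TPM. No paired analysis was possible because the labels carry no replicate numbers that the groups share.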
